A study of Mus musculus with 144 samples.

Results

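The tumour suppressor gene *Trp53* and 9 genes that its product p53 is known to switch on were followed in primary mouse hepatocytes treated with the dioxin TCDD. The 10 genes were chosen by name, with no cut on measured values, out of 55359 genes in the count files, and are *Trp53*, *Cdkn1a*, *Mdm2*, *Ccng1*, *Bax*, *Bbc3*, *Trp53inp1*, *Sesn2*, *Gdf15* and *Phlda3*. All 10 were counted in every RNA-Seq library, none was at 0 in any of them, and all 10 passed the filter on low counts in every comparison. Hepatocytes came from male mice aged 28 days and carried 1 of 2 genotype labels. Libraries labelled WT are given as wild-type of strain C57BL/6NCrl. Libraries labelled Pkm ΔDRE are given as DRE-null of strain Pkm-delta-DRE, a line in which a dioxin response element (DRE) inside an intron of *Pkm* was deleted in the germline by CRISPR/Cas9, so that every cell of the homozygous animals lacks it. Cells of either label received 10 nM TCDD or the vehicle DMSO in dexamethasone-containing medium and were harvested at 9 times from 2 to 120 h, with 4 libraries in each of the 36 groups. The labels name no animal, isolation or culture for a library, so that p-values measure only the spread between these libraries, which may be technical, and the labels and the protocol text differ in plate format and seeding density.

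p53 is a transcription factor that cells hold at low protein levels until DNA damage or another stress stabilizes it. It then binds paired half-sites in the DNA near its target genes, and their products stop the cell cycle, repair DNA, adjust metabolism or start apoptosis. *Mdm2* encodes the ubiquitin ligase that marks p53 for degradation and is itself a p53 target, which closes a negative feedback loop. *Cdkn1a* encodes p21, an inhibitor of cyclin-dependent kinases, and *Ccng1* encodes cyclin G1. *Bax* and *Bbc3* (PUMA) belong to the BCL2 family and promote the release of mitochondrial proteins in apoptosis. *Trp53inp1* encodes a stress protein that takes part in cell death and autophagy, *Sesn2* a sestrin that restrains mTORC1, *Gdf15* a secreted hormone released by stressed cells, and *Phlda3* a pleckstrin homology domain protein that competes with AKT for membrane lipids. Several of these genes, among them *Cdkn1a*, *Sesn2* and *Gdf15*, also answer to other stress pathways such as that of ATF4. TCDD activates the aryl hydrocarbon receptor (AHR), a ligand-dependent transcription factor that binds DREs. Because much of the control of p53 is exerted on the protein, the level of *Trp53* mRNA by itself does not report p53 activity.

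Promoter windows of 300 bases, 250 before and 50 after an annotated start, were taken from RefSeq (GRCm38.p6) and held 13 windows for 9 of the 10 genes; *Trp53inp1* had none. For *Cdkn1a* and 4 genes that were called after TCDD at 8 h, 1 window each is shown so that its motif matches can be read beside the values. Capitals mark the DRE core GCGTG or its reverse complement CACGC, searched on both strands, and the p53 half-site consensus, which reads alike on both strands. No DRE core overlapped a half-site in the windows printed.
Cdkn1a, chr17:29090729-29091028, plus strand: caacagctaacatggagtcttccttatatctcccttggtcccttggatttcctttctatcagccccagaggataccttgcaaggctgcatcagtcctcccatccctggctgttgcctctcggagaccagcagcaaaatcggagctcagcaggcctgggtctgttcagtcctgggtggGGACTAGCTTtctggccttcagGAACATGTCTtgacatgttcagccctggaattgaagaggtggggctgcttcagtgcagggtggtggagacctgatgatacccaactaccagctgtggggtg
Mdm2, chr10:117710709-117711008, minus strand: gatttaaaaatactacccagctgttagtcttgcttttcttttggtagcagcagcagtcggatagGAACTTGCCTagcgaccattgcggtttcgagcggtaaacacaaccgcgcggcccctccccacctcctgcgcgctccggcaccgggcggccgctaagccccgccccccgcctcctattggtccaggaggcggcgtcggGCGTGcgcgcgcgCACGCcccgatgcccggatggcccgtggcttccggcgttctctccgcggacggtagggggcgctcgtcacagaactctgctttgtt
Ccng1, chr11:40755237-40755536, minus strand: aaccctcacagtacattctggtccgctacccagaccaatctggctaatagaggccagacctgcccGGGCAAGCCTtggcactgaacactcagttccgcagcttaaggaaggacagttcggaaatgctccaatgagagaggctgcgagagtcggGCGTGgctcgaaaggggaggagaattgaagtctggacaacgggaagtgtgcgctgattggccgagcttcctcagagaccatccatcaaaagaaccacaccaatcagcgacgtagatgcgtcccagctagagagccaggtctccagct
Bax, chr7:45466849-45467148, minus strand: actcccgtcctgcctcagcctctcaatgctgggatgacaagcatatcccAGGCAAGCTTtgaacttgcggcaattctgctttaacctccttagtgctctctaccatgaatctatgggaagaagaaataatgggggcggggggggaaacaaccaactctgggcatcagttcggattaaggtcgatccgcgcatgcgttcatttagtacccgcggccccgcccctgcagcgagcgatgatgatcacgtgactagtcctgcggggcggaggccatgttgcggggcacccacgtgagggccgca
Phlda3, chr1:135765835-135766134, plus strand: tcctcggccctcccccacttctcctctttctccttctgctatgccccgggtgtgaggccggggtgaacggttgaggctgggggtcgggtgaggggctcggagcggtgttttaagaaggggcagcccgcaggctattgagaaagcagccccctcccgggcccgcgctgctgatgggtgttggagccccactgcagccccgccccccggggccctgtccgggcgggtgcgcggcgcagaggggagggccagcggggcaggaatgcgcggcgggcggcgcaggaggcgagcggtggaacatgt
The *Cdkn1a* window printed held 2 half-site matches separated by 12 bases and no DRE core. The *Cdkn1a* window not printed (chr17:29093519-29093818) held 1 DRE core and no half-site. The *Mdm2* window held 1 half-site and 2 DRE cores, the *Ccng1* window 1 half-site and 1 core, the *Bax* window 1 half-site and no core, and the *Phlda3* window held neither. Over the 13 windows, 6 held the DRE core (46.2%) and 5 a half-site (38.5%), against 32.4% and 8.36% of the 32851 windows of all genes. A match describes these letters only, and p53 is known to bind outside such windows as well.

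The libraries held 13588848 to 30719161 pairs counted on genes, with a median of 18011825. Values are given as CPM, the count of a gene scaled to a common TMM-adjusted library size, and a gene was called when edgeR's quasi-likelihood test gave a Benjamini-Hochberg adjusted p under 0.05 over all genes and the fold change was at least 1.5 in either direction. *Pkm* (ENSMUSG00000032294) went against the genotype labels, rising at 8 h from 60.3 to 134.2 CPM in the libraries labelled Pkm ΔDRE and not in those labelled WT (68.5 CPM with vehicle and 44.6 CPM with TCDD), so each group is named by the label of its libraries. *Cyp1a1* (ENSMUSG00000032315), the classical AHR target, went against the treatment in 4 libraries: it stood at 3252 and 1640 CPM in libraries 21 and 31 (vehicle) and at 1.36 and 27.6 CPM in libraries 40 and 64 (TCDD), all labelled WT. Without these 4 libraries, none of the 10 genes was called in the mean response over the hours, as with them. Hepatocyte markers summed to between 2849 and 237340 CPM over the libraries, with *Cyp2e1* at 0 in 4 of them, whereas the summed markers of Kupffer cells (12.5 to 313 CPM), endothelial cells (20.6 to 298 CPM), stellate cells and fibroblasts (1.26 to 231 CPM), cholangiocytes (6.82 to 356 CPM) and lymphocytes (0 to 2.25 CPM, with *Cd3e* at 0 in most libraries) were far lower. In such bulk samples, fewer cells of a type and less RNA per cell cannot be told apart.

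The 10 genes differed widely in how far their levels moved over the 36 groups. *Trp53* moved least, with group means from 96.9 to 186 CPM (1.92-fold), followed by *Sesn2* (2.58-fold), *Mdm2* (3.30-fold), *Cdkn1a* (3.48-fold) and *Bax* (3.97-fold). *Phlda3* moved most, from a mean of 1.36 CPM in libraries labelled WT treated with TCDD for 2 h to 69.4 CPM in vehicle-treated libraries labelled Pkm ΔDRE at 120 h, a ratio of 51.1. *Ccng1* spanned 19.7-fold, *Gdf15* 10.7-fold, *Trp53inp1* 7.42-fold and *Bbc3* 5.99-fold. For *Phlda3* and *Ccng1* the lowest group was at 2 h, and for *Gdf15* and *Cdkn1a* the highest group was at 2 h, with the opposite end of the range at 24 h or later.

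**Figure D1:**
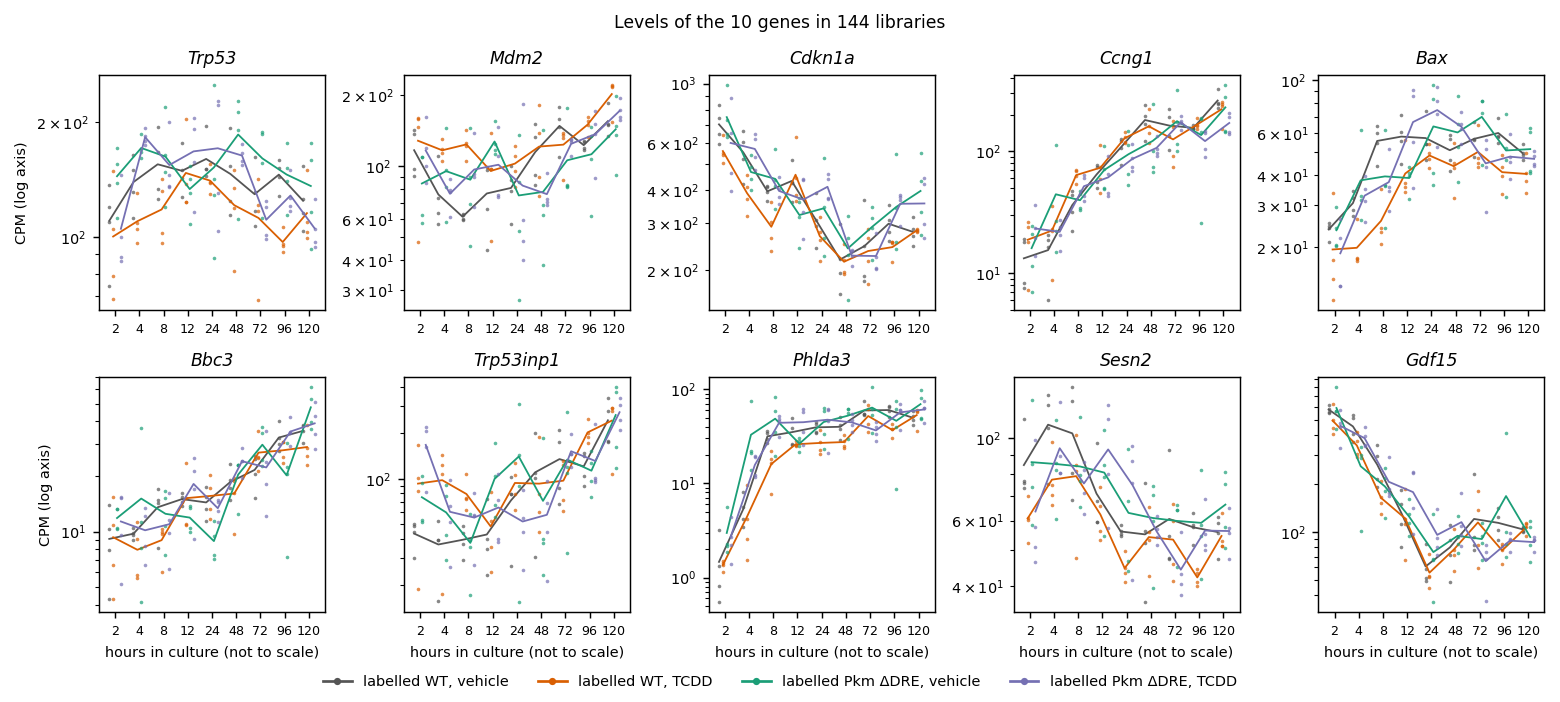
Level of each of the 10 genes in CPM (log axis) at the 9 harvest times in hours (evenly spaced, not to scale), for the 4 combinations of genotype label and treatment. Dots are libraries (4 per group) and lines join group means; the curves of *Phlda3* and *Ccng1* climb from 2 h onwards while those of *Gdf15* and *Cdkn1a* fall.

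Along time in vehicle, the targets of p53 did not move together. In libraries labelled WT, between 2 and 8 h *Ccng1*, *Bax* and *Phlda3* rose while *Cdkn1a*, *Mdm2* and *Gdf15* fell, so that 6 of the 10 genes were called against 31.9% of all genes (15.9% higher and 16% lower). Between 8 and 24 h *Ccng1* rose and *Sesn2* and *Gdf15* fell (3 of 10, against 29.1% of all genes; 16.9% higher and 12.3% lower), and between 24 and 120 h *Mdm2*, *Ccng1*, *Bbc3*, *Trp53inp1* and *Gdf15* rose (5 of 10, against 35.6% of all genes; 17% higher and 18.6% lower). In all 14 of these changes the 4 libraries of one hour lay wholly on one side of the 4 libraries of the other. The 14 had been picked by the test, so this separation describes them and adds no support. How many of all genes were separated in this way was not counted. *Trp53* itself was not called in any of the 3 windows, and its mean was 110.2 ± 26.4 CPM at 2 h, 155 ± 31.5 CPM at 8 h, 160.2 ± 23.98 CPM at 24 h and 124.4 ± 21.2 CPM at 120 h (SD, n = 4).

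*Cdkn1a* (ENSMUSG00000023067; chr17:29090976-29100727 in GRCm38) stood at 648, 741, 594 and 832 CPM in the WT vehicle group at 2 h and at 412, 414, 391 and 363 CPM at 8 h. All 8 h libraries lay below all 2 h libraries, a 1.80-fold decrease (log2 fold change -0.85, standard error 0.19, adjusted p = 0.000645), and no later window gave a call. An antisense gene overlaps 7.68% of its exonic bases, and the counts do not separate strands. *Mdm2* (ENSMUSG00000020184; chr10:117688875-117710758) fell from 141.7, 97.6, 136.9 and 91.3 CPM at 2 h to 59.9, 62.4, 59.5 and 62.8 CPM at 8 h (log2 fold change -0.95, standard error 0.23, adjusted p = 0.00150). It was back at 185, 134.8, 151 and 149 CPM by 120 h, above each of the 24 h libraries (87.5, 78.4, 100.7 and 57.3 CPM; log2 fold change 0.99, standard error 0.23, adjusted p = 0.000855). *Ccng1* (ENSMUSG00000020326; chr11:40748552-40755311) was called higher in every window, and *Gdf15* is the other member with a call in each. The mean of *Ccng1* rose from 13.2 ± 6.12 CPM at 2 h to 36.2 ± 11.4 CPM by 8 h, 107.3 ± 22.02 CPM by 24 h and 261 ± 43.3 CPM by 120 h (SD, n = 4). These steps were 2.72-fold, 3.01-fold and 2.51-fold, with adjusted p of 0.000506, 0.000169 and 0.000772.

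The apoptosis genes rose at different times. *Bax* (ENSMUSG00000003873; chr7:45461697-45466898) rose from 24.5, 25.2, 24.1 and 20.99 CPM at 2 h to 59.9, 64.3, 54.3 and 43.7 CPM at 8 h, a 2.32-fold increase without overlap (log2 fold change 1.21, standard error 0.15, adjusted p = 2.04e-07). After 8 h its means stayed between 49.5 and 57.1 CPM at 24 and 120 h with no call; 12.2% of its exonic bases are shared with a predicted gene on the same strand, so a part of its counts may belong there. *Bbc3* (ENSMUSG00000002083; chr7:16308393-16318205) was called late, from 15.4, 13.4, 17.5 and 11.4 CPM at 24 h to 35.3, 30.4, 38.4 and 37.8 CPM at 120 h (log2 fold change 1.34, standard error 0.24, adjusted p = 4.85e-05). *Trp53inp1* (ENSMUSG00000028211; chr4:11156431-11174379) was also called in the last window, from 79.4, 103.1, 79.4 and 26.6 CPM to 341, 174, 176 and 279 CPM, where the groups did not overlap but the 120 h libraries were spread (log2 fold change 1.80, standard error 0.45, adjusted p = 0.00195).

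*Phlda3* (ENSMUSG00000041801; chr1:135766119-135769136) made the largest early step of the 10 genes. It was barely detected at 2 h, at 0.813, 1.32, 0.553 and 3.17 CPM, and stood at 29.3, 27.1, 34.4 and 35.6 CPM at 8 h, a 20.9-fold increase (log2 fold change 4.39, standard error 0.33, adjusted p = 6.76e-12). *Gdf15* (ENSMUSG00000038508; chr8:70629393-70632456) went the other way, from 559, 621, 582 and 553 CPM at 2 h to 299, 349.7, 189 and 214 CPM at 8 h and 51.4, 48.97, 58.2 and 84.3 CPM at 24 h. Both steps were called, the first 2.22-fold (log2 fold change -1.15, standard error 0.28, adjusted p = 0.00140) and the second 4.30-fold (log2 fold change -2.10, standard error 0.28, adjusted p = 1.14e-06), and a partial return to 103.6 ± 3.40 CPM at 120 h (SD, n = 4) was called as well (log2 fold change 0.83, standard error 0.28, adjusted p = 0.0169). *Sesn2* (ENSMUSG00000028893; chr4:132492032-132510501) fell between 8 and 24 h, from 137.1, 126.4, 80.7 and 68.3 CPM to 56.2, 55.3, 54.5 and 58.5 CPM (log2 fold change -0.86, standard error 0.22, adjusted p = 0.00347). The decrease of *Sesn2* and the return of *Gdf15* did not pass the adjusted p without replicate 1 or without replicate 2 (log2 fold changes of -0.69 and -0.75 for *Sesn2*, 0.73 and 0.75 for *Gdf15*). All 14 calls were kept when each library's trend on transcript GC content was removed, but from 24 to 120 h *Ccng1* then had a log2 fold change of 0.59 (adjusted p = 0.00679), just past the threshold, and *Trp53inp1* one of 0.99 (adjusted p = 0.000307). Markers of the cells that a culture can hold moved over the same hours. The summed hepatocyte markers went from 130677 to 168272 CPM at 2 h to 79479 to 96331 CPM at 8 h, 25552 to 37558 CPM at 24 h and 2849 to 16287 CPM at 120 h, with 1, 5 and 5 of the 6 markers called lower in the successive windows. Endothelial markers went from 161.1 to 290.5 CPM at 2 h to 43.7 to 74.4 CPM at 8 h, with 5 of 5 called lower; from 8 to 24 h 2 were called higher and 1 lower, and from 24 to 120 h 2 lower. Kupffer cell markers had 1 of 5 called higher in the first window and 2 of 5 called lower in each of the later ones. Stellate cell and fibroblast markers stood at 4.42 to 6.88 CPM at 24 h and 15.3 to 132.2 CPM at 120 h (3 of 5 called higher, after 1 higher from 8 to 24 h), and cholangiocyte markers at 36.8 to 73.7 CPM and 133.4 to 174.8 CPM (3 of 4 called higher, after 1 lower from 2 to 8 h and 2 higher from 8 to 24 h). The 1 lymphocyte marker tested was not called. The part of these cells in the changes of the 10 genes was not tested.

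In libraries labelled Pkm ΔDRE fewer genes were called in these windows. Between 2 and 8 h *Gdf15* fell and *Phlda3* rose (2 of 10, against 11% of all genes; 5.52% higher and 5.5% lower). *Phlda3* stood at 2.17, 5.61, 1.85 and 2.25 CPM at 2 h and at 35.4, 19.3, 58.04 and 81.7 CPM at 8 h, a 15.9-fold increase without overlap (log2 fold change 3.99, standard error 0.59, adjusted p = 3.39e-05). *Gdf15* fell from 568, 438, 796 and 566 CPM to 216, 121.2, 179.8 and 251 CPM (log2 fold change -1.66, standard error 0.43, adjusted p = 0.0103), a call that was lost without replicate 1 or 3 (log2 fold changes of -1.71 and -1.47). *Cdkn1a* and *Ccng1* also had groups that did not overlap in this window, with log2 fold changes of -0.80 and 1.28, without passing the test (adjusted p = 0.0641 and 0.157). From 8 to 24 h none was called by edgeR, against 3.33% of all genes (1.3% higher and 2.03% lower). In that test 4 had an unadjusted p under 0.05, beside 24.2% of all genes. DESeq2 called 2 of the 10, and its share over all genes is not given here. From 24 to 120 h *Bbc3* was the single call (1 of 10, against 23.4% of all genes; 9.38% higher and 14% lower), from 9.43, 7.49, 7.08 and 11.5 CPM to 61.2, 36.5, 39.8 and 53.2 CPM (log2 fold change 2.38, standard error 0.44, adjusted p = 0.000403). Summed hepatocyte markers stood at 154888 to 237340 CPM at 2 h and 6930 to 9316 CPM at 120 h, with 0, 0 and 5 of 6 called lower in the successive windows. From 2 to 8 h 2 of 5 endothelial markers and 1 of 4 cholangiocyte markers were called lower, and from 8 to 24 h no marker of any list was called. From 24 to 120 h 2 of 5 Kupffer cell and 2 of 5 endothelial markers were called lower, 3 of 5 stellate cell and fibroblast markers higher (sums of 2.79 to 7.14 CPM and 28.9 to 209.6 CPM) and 3 of 4 cholangiocyte markers higher (12.5 to 67.7 CPM and 137.9 to 182.7 CPM); their part was not tested. Whether a time course differed between the labels was not tested.

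Over a wider list of p53 targets without the 10 genes, in which 61 genes were tested, calls along time in vehicle went in both directions. In libraries labelled WT, 11 rose and 14 fell between 2 and 8 h (40.98% called, against 31.9% of all genes), 18 rose and 9 fell between 8 and 24 h (44.3% against 29.1%), and 11 rose and 13 fell between 24 and 120 h (39.3% against 35.6%), with list medians of 0.03, 0.35 and -0.09 on the log2 scale beside medians of 0, 0.12 and 0.11 over all genes. The death receptor gene *Tnfrsf10b* rose 5.75-fold in the first window (log2 fold change 2.52, adjusted p = 6.18e-11), and the cytoskeleton-associated gene *Ckap2* (2.86) and the checkpoint kinase gene *Chek2* (2.81), a regulator of p53, rose too. The growth arrest gene *Gadd45a* fell 8.96-fold (log2 fold change -3.16, adjusted p = 1.24e-08). Cell cycle genes that p21 is known to repress through E2F and DREAM complexes rose between 8 and 24 h, 9 of 10 being called higher, against 16.9% of all genes, with a median log2 fold change of 2.94, while *Cdkn1a* was not called in that window (log2 fold change -0.34, adjusted p = 0.172). The metabolic genes *Sesn1* (log2 fold change -2.39) and *Gls2* (-2.43) and the ATF4 target *Chac1* (-3.02) fell in the same window. *E2f7*, *Plk1* and *Pmaip1* (NOXA) had 8 h means of 0.0193, 0.0494 and 0.0494 CPM, and *Bub1* was at 0 in all 4 libraries at 8 h, so no fold change is given for them there; at 24 h *E2f7* and *Plk1* had means of 3.02 and 2.28 CPM. From 24 to 120 h *Pmaip1* rose from a mean of 0.42 to 9.14 CPM (log2 fold change 4.44, adjusted p = 0.000202), the stress gene *Nupr1* rose (2.03), *Bub1* rose (1.97, not called with the GC trend removed), and *Retsat* (-2.81), *Mcm5* (-2.95) and *Gls2* (-4.25) fell. Of these genes, *Nupr1* (an ATF4 target) and *Plk1*, *Bub1* and *Mcm5* (repressed by p21) lie outside the 61 targets.

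Under the label Pkm ΔDRE, 9 of these 61 targets rose and 10 fell between 2 and 8 h (31.1% called, against 11% of all genes), 3 rose and 5 fell between 8 and 24 h (13.1% against 3.33%), and 9 rose and 11 fell between 24 and 120 h (32.8% against 23.4%). The genes named next come from all the wider lists. *Chek2* (a regulator of p53), *Atf3* and *Nupr1* (ATF4 targets) and *Mcm5* (repressed by p21) lie outside the 61 targets. Between 2 and 8 h *Chek2* (log2 fold change 3.67), the G2 and S phase gene *Gtse1* (3.06) and *Tnfrsf10b* (2.84) rose, and *Atf3* (-2.25), *Gadd45a* (-2.61) and *Btg1* (-2.78) fell. Between 8 and 24 h *Trp53i11* (3.84) and *Mcm5* (3.15) rose, *E2f7* rose from a mean of 0.0691 to 3.24 CPM, and *Ddit4* (-1.77), *Lpin1* (-2.29) and *Sesn1* (-2.97) fell. Between 24 and 120 h *Pmaip1* (5.04), *Lpin1* (2.50) and *Nupr1* (1.76) rose, and *Retsat* (-3.16), *Mcm5* (-3.27) and *Gls2* (-4.15) fell. Of these, *Tnfrsf10b*, *Chek2* and *Gadd45a* early and *Pmaip1*, *Nupr1*, *Retsat*, *Mcm5* and *Gls2* late were named under both labels.

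TCDD gave more calls among these genes at 8 h in libraries labelled WT than at any other hour, and not in 1 direction. *Mdm2*, *Ccng1* and *Trp53inp1* were higher and *Bax* and *Phlda3* lower with TCDD, 5 of the 10 genes, where 37.4% of all genes were called (23.8% higher and 13.6% lower), so that the share was near that of the genome. For all 5 the TCDD-treated libraries lay wholly above or wholly below the vehicle-treated ones, which adds no support because the 5 had been picked by the test. The share of all genes that did so was not counted. *Trp53* was not called (log2 fold change -0.27, adjusted p = 0.221). DESeq2 called 6 of the 10, adding *Gdf15* (-0.59), and 5097 of the 12392 genes tested.

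*Mdm2*, the p53 ubiquitin ligase, stood at 59.9, 62.4, 59.5 and 62.8 CPM with vehicle and at 121.6, 125.4, 142.4 and 105.3 CPM with TCDD. The vehicle libraries were tightly grouped and the lowest TCDD library was well above them, a 2.21-fold increase (log2 fold change 1.14, standard error 0.14, adjusted p = 0.000846). *Ccng1*, the cyclin gene, stood at 22.3, 31.5, 47.3 and 43.4 CPM with vehicle and 53.4, 63.2, 68.4 and 69.8 CPM with TCDD. The highest vehicle library came close to the lowest TCDD library without reaching it (log2 fold change 0.94, standard error 0.22, adjusted p = 0.00459). *Trp53inp1* stood at 28.99, 37.2, 48.6 and 43.8 CPM and 62.04, 107.6, 74.4 and 73.4 CPM (log2 fold change 1.13, standard error 0.21, adjusted p = 0.00187). Its TCDD values all lay above those of vehicle, led by 1 library.

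The other 2 calls were decreases. *Bax* stood at 59.9, 64.3, 54.3 and 43.7 CPM with vehicle and 35.1, 23.2, 20.6 and 24.1 CPM with TCDD, a 1.99-fold decrease (log2 fold change -0.99, standard error 0.19, adjusted p = 0.00211). *Phlda3* stood at 29.3, 27.1, 34.4 and 35.6 CPM and 21.9, 16.3, 7.70 and 18.3 CPM, a 1.82-fold decrease (log2 fold change -0.86, standard error 0.27, adjusted p = 0.0196), with 1 TCDD library far below the other 3. *Cdkn1a* was lower in all 4 TCDD-treated libraries (360, 302, 236 and 265 CPM) than in any vehicle-treated one (412, 414, 391 and 363 CPM), but did not pass the test (log2 fold change -0.32, standard error 0.14, adjusted p = 0.0799). *Gdf15* passed the adjusted p but not the fold change (log2 fold change -0.57, standard error 0.20, adjusted p = 0.0351), and its groups overlapped. *Bbc3* (log2 fold change -0.47, adjusted p = 0.172) and *Sesn2* (-0.26, adjusted p = 0.420) did not pass.

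**Figure D2:**
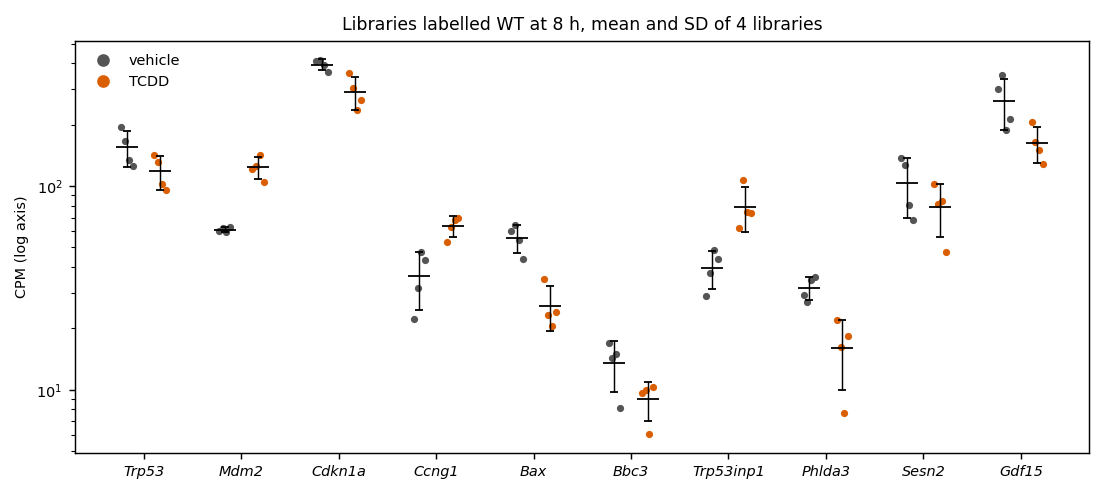
Level of the 10 genes in CPM (log axis) in the 4 vehicle-treated and 4 TCDD-treated libraries labelled WT at 8 h. Points are libraries and bars the mean with its SD; the 2 treatments do not overlap for *Mdm2*, *Ccng1* and *Trp53inp1* (higher with TCDD) or for *Bax*, *Phlda3* and *Cdkn1a* (lower).

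The direction of these 5 changes followed the base composition of the transcripts. The 3 genes that were higher had the lowest GC content of the 10 (*Trp53inp1* 38.8%, *Ccng1* 40.8% and *Mdm2* 46.2%), and the 2 that were lower were GC-rich (*Phlda3* 62.6% and *Bax* 63.6%). Over all genes at this hour the log2 fold change correlated with transcript GC content (Spearman's rho -0.636 across genes, which are not independent replicates), with a median of 1.06 for genes under 45% GC and -0.55 for genes above 60%. The share of uniquely mapped pairs that fell on no gene, a measure of reads outside annotated exons, was 4.89% to 6.00% in the vehicle-treated and 8.36% to 22.0% in the TCDD-treated libraries. With each library's GC trend removed, a step added once the data had been seen, none of the 5 was called: *Mdm2* kept a log2 fold change of 0.57 (adjusted p = 0.00879) and *Bax* one of -0.44 (adjusted p = 0.0459), both under the fold change threshold, *Phlda3* had -0.36 (adjusted p = 0.294), and *Ccng1* and *Trp53inp1* were at -0.04 and 0.02. The GC trend was fitted in each library without regard to treatment, so a response to TCDD that ran with GC content would be removed as well. The loss of these calls therefore cannot tell the 2 apart. In 1 fit of all hours of the label *Trp53inp1* did not pass (1.02, adjusted p = 0.101), and with 1 surrogate variable added to it none of the 5 did. All 5 were kept when the share of pairs on no gene entered as a covariate. Because that share did not overlap between the treatments, this fit cannot separate it from TCDD. Summed hepatocyte markers were also lower with TCDD (63591 to 69227 CPM against 79479 to 96331 CPM, with 3 of 6 markers called lower and 1 higher), as were Kupffer cell markers (54.1 to 101.9 CPM against 128.8 to 183.6 CPM, with 2 of 5 called lower). The other lists overlapped between treatments: endothelial cells 49.96 to 81.1 against 43.7 to 74.4 CPM, cholangiocytes 9.61 to 19.8 against 13.2 to 30.1 CPM, stellate cells and fibroblasts 3.93 to 8.67 against 2.94 to 7.42 CPM, and lymphocytes 0.189 to 2.25 against 0 to 0.387 CPM, with none called of the 8 markers of these lists that passed the filter. The part of base composition, RNA outside exons or cell make-up in these changes was not tested beyond these values.

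**Figure D3:**
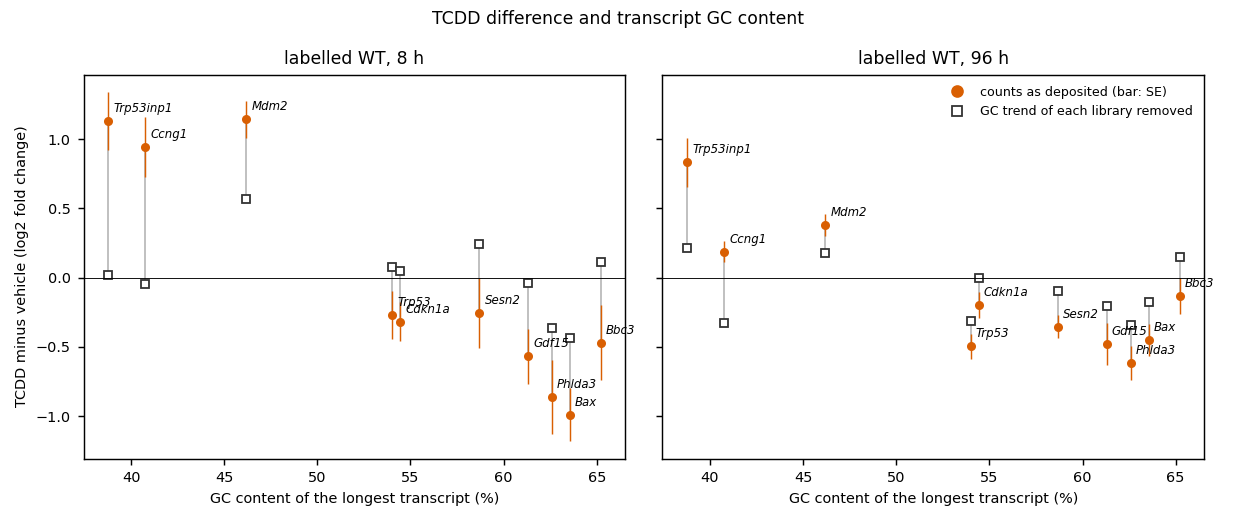
TCDD log2 fold change (vertical axis) against the GC content of the longest transcript in percent (horizontal axis) for the 10 genes in libraries labelled WT at 8 h and 96 h. Filled points are the counts as deposited with the standard error and open squares the same fit with each library's GC trend removed; at 8 h *Ccng1* moves from 0.94 to -0.04 and *Trp53inp1* from 1.13 to 0.02.

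The wider lists at 8 h under the label WT held calls in both directions. Of 59 other p53 targets tested, 11 were higher and 8 lower (32.2% called, against 37.4% of all genes; 23.8% of all genes were higher and 13.6% lower), with a median log2 fold change of -0.03, beside a median of 0.00 over all genes. DNA repair targets were higher in 6 of 8 cases, against the 23.8% of all genes, with a median of 1.19: *Rrm2b*, a subunit of ribonucleotide reductase, rose by 1.70 on the log2 scale, the polymerase genes *Rev3l*, *Polk* and *Polh* by 1.47, 1.29 and 0.73, and the excision repair genes *Ercc5* and *Ddb2* by 1.30 and 1.09. Regulators of p53 were higher in 7 of 13 cases, beside the same 23.8%, with a median of 0.87: the damage kinase genes *Atm* (2.04) and *Atr* (1.27), the ubiquitin pathway genes *Usp7* (1.54), *Cop1* (1.22) and *Mdm4* (1.47), the acetyltransferase gene *Ep300* (1.48) and the kinase gene *Hipk2* (0.87). Both lists consist of transcripts low in GC, with medians of 46.3% and 46.4%. With the GC trend removed, 1 of 8 repair genes and 4 of 13 regulators were called higher, with medians of 0.44 and 0.25, and 3 targets were called higher and 4 lower over all target lists, where 9.63% of all genes were higher and 8.63% lower. The 8 targets called lower on the counts as deposited were *Plk3*, *Ei24*, *Siva1*, *Gpx1*, *Ddit4*, *Fuca1*, *Ninj1* and *Plxnb2*.

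At 96 h in libraries labelled WT, *Trp53inp1* was higher and *Phlda3* lower with TCDD (2 of 10, against 15.1% of all genes; 10.1% higher and 5% lower). *Trp53inp1* stood at 147, 141.6, 104.2 and 89.6 CPM with vehicle and 247, 189, 171 and 201 CPM with TCDD, without overlap (log2 fold change 0.83, standard error 0.18, adjusted p = 0.00652). *Phlda3* stood at 66.2, 64.5, 50.6 and 59.1 CPM and 30.1, 37.6, 37.4 and 42.2 CPM, without overlap, at a fold change close to the threshold (log2 fold change -0.61, standard error 0.12, adjusted p = 0.00395). By adjusted p alone 7 of the 10 genes passed, against 32.8% of all genes. *Trp53* had its lowest group mean of the whole series here, at 91.4, 105.9, 95.6 and 94.8 CPM with TCDD beside 159, 152, 128.3 and 143.2 CPM with vehicle (log2 fold change -0.50, standard error 0.09, adjusted p = 0.00219), and *Mdm2* was higher (log2 fold change 0.38, standard error 0.08, adjusted p = 0.00469). *Bax* (log2 fold change -0.45, adjusted p = 0.0129), *Sesn2* (-0.35, adjusted p = 0.00761) and *Gdf15* (-0.48, adjusted p = 0.0314) were lower at sizes under the fold change threshold.

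The signs at 96 h were those of 8 h for *Mdm2*, *Trp53inp1*, *Bax* and *Phlda3*, and again ran with GC content (rho -0.514 over all genes). With the GC trend removed neither call was kept, with *Trp53inp1* at 0.21 (adjusted p = 0.195) and *Phlda3* at -0.34 (adjusted p = 0.0406). *Trp53inp1* was also lost when the pairs on no gene entered as a covariate (log2 fold change 0.44, adjusted p = 0.0981), their share being 6.21% to 9.41% with vehicle and 9.08% to 11.8% with TCDD. *Phlda3* came under the fold change threshold without vehicle replicate 1 or 2 (-0.57 each) or TCDD replicate 1 (-0.54). Vehicle replicate 3 is library 31, in which *Cyp1a1* went against the treatment. Without it both calls were kept and *Gdf15* was called as well (-0.59, adjusted p = 0.0108). TCDD replicate 1 is library 65, with 63.3% of strand-separated counts on 1 strand (median over all libraries 50.6%) and 11.4% of pairs unmapped (median 7.055%). Summed hepatocyte markers were 12513 to 14524 CPM with TCDD and 6974 to 13175 CPM with vehicle (2 of 5 tested called higher), and cholangiocyte markers 121.6 to 140.3 CPM and 247 to 287 CPM (2 of 4 called lower). Endothelial markers were at 24.8 to 36.3 CPM with TCDD and 35.4 to 50.1 CPM with vehicle (2 of 4 tested called lower), and no Kupffer cell, stellate cell or lymphocyte marker was called; the part of these cells was not tested.

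Of 61 other p53 targets, 4 were higher and 1 lower at 96 h (8.20% called, against 15.1% of all genes; median -0.07, all genes 0.01), namely *Rev3l* (log2 fold change 0.95), *Pmaip1* (0.71), *Pank1* (0.64) and *Ercc5* (0.63), and *Ninj1* (-0.71). Cell cycle genes repressed by p21 were lower in 6 of 10 cases, against 5% of all genes, with a median of -0.76: *Plk1* (-1.30), *Mcm5* (-1.04), *Mcm2* (-0.86), *Ccna2* (-0.83), *Cdk1* (-0.82) and *E2f1* (-0.71). With the GC trend removed 5 of the 10 were called lower, against 3.81% of all genes. *Cdkn1a* itself, which encodes the inhibitor, had a log2 fold change of -0.19 (adjusted p = 0.131) at this hour. ATF4 targets were lower in 4 of 7 cases, beside the same 5%, with a median of -0.59 (*Nupr1* -0.89, *Chac1* -0.67, *Psat1* -0.64 and *Asns* -0.59), and in 2 of 7 with the GC trend removed.

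At the other 7 hours under the label WT none of the 10 genes was called, by edgeR or by DESeq2, in 70 tests, of which 8 had an unadjusted p under 0.05. The share of all genes with such a p ran from 1.37% (2 h) to 17.1% (4 h) over these hours. Of all genes, 0% were called at 2, 4 and 72 h, and 0.0321% (12 h), 0.373% (24 h), 0.00763% (48 h) and 1.46% (120 h) at the others, so that few genes of any kind passed. The largest member value at these hours was that of *Trp53inp1* at 4 h, at 15.6, 52.5, 39.8 and 39.8 CPM with vehicle and 142.7, 123.1, 108.1 and 17.5 CPM with TCDD, where the groups overlapped (log2 fold change 1.54, adjusted p = 0.286). At the same hour *Bax* was lower in all 4 TCDD-treated libraries (17.96, 17.5, 17.8 and 26.2 CPM) than in any vehicle-treated one (32.2, 28.5, 27.1 and 34.4 CPM) without passing (log2 fold change -0.53, adjusted p = 0.286). *Sesn2* showed the same lack of overlap at 2 h, with 4 TCDD libraries below 4 vehicle libraries and a log2 fold change of -0.41 (adjusted p = 0.9998).

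Under the label Pkm ΔDRE none of the 10 genes was called at any of the 9 hours by edgeR, in 90 tests, of which 6 had an unadjusted p under 0.05 and 1 was called by DESeq2. The share of all genes with such an unadjusted p ran from 1.29% (24 h) to 14.15% (2 h). Of all genes, edgeR called 0% at 2 and 4 h. The share was 0.106% (8 h), 0.024% (12 h), 0.016% (24 h), 0.404% (48 h), 1.13% (72 h), 0.0793% (96 h) and 0.633% (120 h). Summed hepatocyte markers of the vehicle-treated libraries ran from 10697 to 144400 CPM at 4 h and from 13048 to 108038 CPM at 96 h. The group means were 107621 CPM at 4 h and 37522 CPM at 96 h, so at each of these hours 1 library lay far from the others. This spread enters the comparisons at those hours. It also enters the mean over the hours, the interaction and the label difference, which keep these libraries. *Trp53inp1* at 2 h, the gene that DESeq2 called, stood at 53.4, 93.3, 51.6 and 104.1 CPM with vehicle and 82.03, 220.2, 161 and 205 CPM with TCDD, with overlap (log2 fold change 1.35, adjusted p = 0.280). DESeq2 called 4.66% of all genes at that hour, all of them higher. *Mdm2* at 72 h showed how 1 library could set a comparison: the vehicle libraries stood at 177, 81.9, 83.3 and 82.3 CPM and the TCDD libraries at 130.6, 110.5, 129.6 and 126.9 CPM. Without the first of these vehicle libraries, library 97, 4 genes were called at 72 h: *Mdm2* (log2 fold change 0.60), *Trp53* (-0.66), *Bax* (-0.81) and *Phlda3* (-1.01). In that fit 14.4% of all genes were called, against 1.13% with the library. *Bax* was higher and not lower with TCDD at 12 h under this label (43.2, 31.9, 40.7 and 39.8 CPM with vehicle, 90.6, 35.3, 85.5 and 55.1 CPM with TCDD), with overlapping groups (log2 fold change 0.79, adjusted p = 0.509). With the order of library numbers as a replicate block, *Bax* (0.71, adjusted p = 0.0179), *Phlda3* (0.70, adjusted p = 0.0170) and *Trp53inp1* (-0.60, adjusted p = 0.0159) were called at 12 h, where that fit called 11.5% of all genes, and *Mdm2* and *Trp53inp1* at 2 h, where it called 14.9%. The numbers carry no pairing in the labels, but at 12 h all 4 same-number pairs of libraries deviated together (correlations of 0.154 to 0.811).

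**Figure D4:**
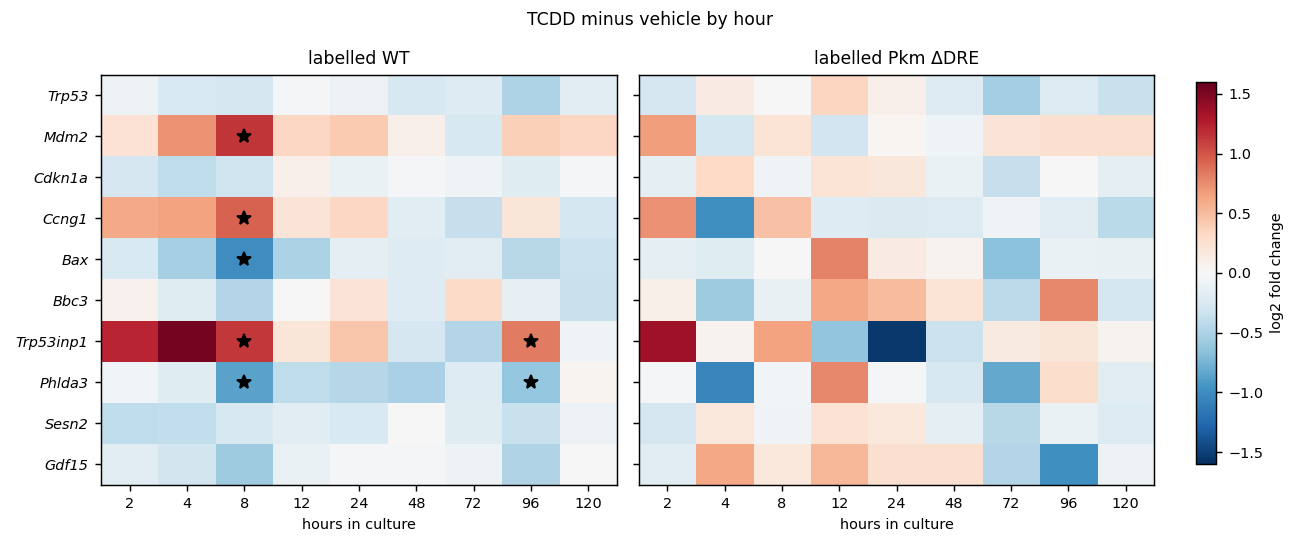
TCDD log2 fold change (colour scale) of the 10 genes (rows) at the 9 harvest times in hours (columns), for libraries labelled WT and Pkm ΔDRE. A star marks a call; the 7 stars stand under the label WT, 5 at 8 h and 2 at 96 h, and *Trp53*, *Bax*, *Sesn2* and *Gdf15* are below 0 at all 9 hours under that label.

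Averaged over the 9 hours, the TCDD response of the 10 genes was small under either label. Under the label WT no gene reached a 1.5-fold change, so none was called by edgeR or DESeq2 (9.17% of all genes were called). Still, 8 had an unadjusted p under 0.05, against 46.8% of all genes, and the same 8 passed the adjusted p alone, against 37.7% of all genes. *Bax* had the smallest p, with a mean level of 49.1 CPM with vehicle and 36.6 CPM with TCDD (log2 fold change -0.44, standard error 0.07, adjusted p = 2.97e-06). *Phlda3* (-0.41, adjusted p = 0.00256), *Sesn2* (-0.28, 0.00196), *Trp53* (-0.25, 0.00483), *Gdf15* (-0.24, 0.0366) and *Cdkn1a* (-0.19, 0.0131) were lower as well. *Trp53inp1* (0.46, 0.0225) and *Mdm2* (0.33, 0.00259) were higher, and *Ccng1* (0.18, 0.177) and *Bbc3* (-0.12, 0.306) did not pass. With the GC trend removed *Bax* was at -0.31 (adjusted p = 2.9e-07), *Phlda3* at -0.28 (0.023), *Trp53* at -0.17 (0.0182) and *Mdm2* at 0.15 (0.0487), *Ccng1* turned to -0.18 (0.0163), and *Sesn2* (-0.14, 0.0834), *Cdkn1a* (-0.10, 0.142), *Gdf15* (-0.10, 0.379) and *Trp53inp1* (0.04, 0.804) no longer passed.

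By sign the decreases recurred over the hours, but some of the hourly values were close to 0. Under the label WT the log2 fold change ran from -0.50 to -0.015 for *Trp53*, -0.99 to -0.14 for *Bax*, -0.41 to -0.010 for *Sesn2* and -0.57 to -0.009 for *Gdf15*. The log2 fold change was negative at 9 of 9 hours for *Trp53*, *Bax*, *Sesn2* and *Gdf15* and at 8 of 9 for *Cdkn1a* and *Phlda3*, and positive at 8 of 9 for *Mdm2*. Over the 10892 genes tested at every hour, 3.91% were negative and 4.62% positive at all 9 hours, and 14.5% and 16.3% at 8 or more. The hours are separate libraries of either treatment, but may share animals. Under the label Pkm ΔDRE none of the 10 kept 1 sign over the 9 hours, as did 1.18% of 10854 genes on the negative and 0.599% on the positive side.

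Under the label Pkm ΔDRE none of the 10 genes was called in the mean over the hours by edgeR or DESeq2 (2.12% of all genes), none passed the adjusted p alone (3.74%), and none had an unadjusted p under 0.05 (14.4%). The 95% intervals bound what these 72 libraries leave room for: -0.24 to 0.15 on the log2 scale for *Bax* (log2 fold change -0.05), -0.15 to 0.34 for *Mdm2* (0.09), -0.29 to 0.02 for *Trp53* (-0.14) and -0.20 to 0.13 for *Cdkn1a* (-0.04). Those of *Trp53inp1* (-0.39 to 0.35), *Ccng1* (-0.43 to 0.15) and *Phlda3* (-0.45 to 0.12) were wider, and all of them stayed within the fold change threshold. A mean near 0 can join opposite hours: *Trp53inp1* (-0.02) ran from 1.35 at 2 h to -1.54 at 24 h, neither called by edgeR. At 24 h its means were 140.1 CPM with vehicle and 52.3 CPM with TCDD, with overlapping groups (adjusted p = 0.9999).

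**Figure D5:**
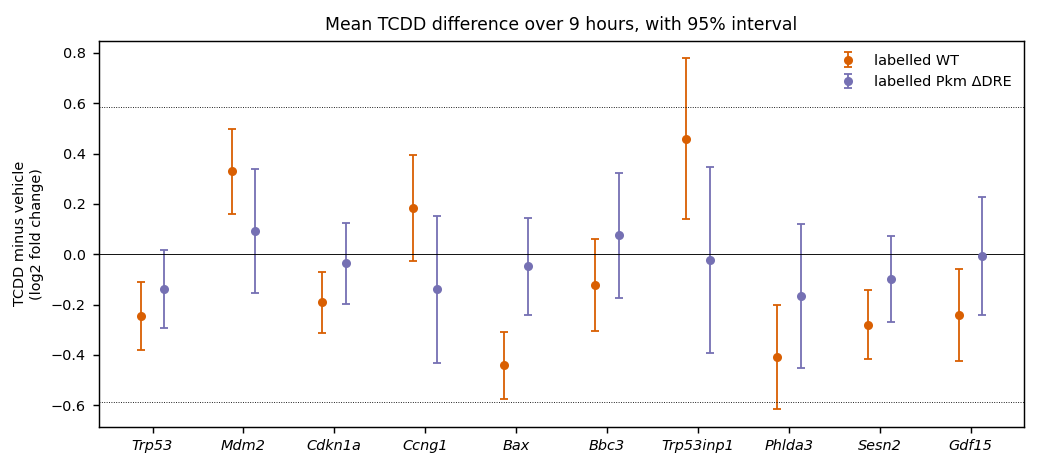
Mean TCDD log2 fold change over the 9 hours with its 95% interval for the 10 genes under the labels WT and Pkm ΔDRE. Dotted lines mark the fold change threshold of 1.5 (0.585 on the log2 scale) in either direction; every point lies between them, and under the label Pkm ΔDRE every interval includes 0.

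Of the wider lists, 2 of 61 p53 targets were called higher in the mean over the hours under the label WT (3.28%, against 7.79% of all genes): *Pmaip1*, which encodes the BH3-only protein NOXA (log2 fold change 1.13, adjusted p = 0.00286; 0.82 with the GC trend removed, still called), and *Rev3l* (0.67, adjusted p = 0.00263; 0.34 with the GC trend removed, not called). The p21-repressed gene *Top2a* was called higher at 1.14 (adjusted p = 0.0461) although its mean CPM was lower with TCDD (6.12 against 8.91), and it was not called with the GC trend removed. Under the label Pkm ΔDRE none of the 61 was called, and the mitotic kinase gene *Plk1* was lower (-1.17, adjusted p = 0.0208; -1.11 and called with the GC trend removed).

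Whether the TCDD response differed between the labels was tested directly as an interaction. None of the 10 genes was called by edgeR or DESeq2 at any hour (90 tests, of which 9 had an unadjusted p under 0.05), and none in the mean over the hours (1 of 10 with an unadjusted p under 0.05). Over all genes the share called was 0.00715% at 48 h, 0.00695% at 72 h, 0% at each of the other 7 hours and 0.45% in the mean. *Bax* came nearest, with mean responses of -0.44 (WT) and -0.05 (Pkm ΔDRE), a difference of 0.40 on the log2 scale (95% interval 0.17 to 0.63, adjusted p = 0.0825). The differences for *Trp53inp1*, *Ccng1* and *Mdm2* were -0.47 (-0.97 to 0.02), -0.32 (-0.68 to 0.05) and -0.23 (-0.53 to 0.07). At 8 h, where the calls under the label WT stood, the difference was -1.05 for *Mdm2* and 0.87 for *Bax* (adjusted p = 0.292 for both). The changes at 8 and 96 h are thus not shown to be particular to the label WT. Of the 61 other targets, *Ddit4*, which encodes the mTORC1 inhibitor REDD1, was called in the mean difference (0.70, adjusted p = 0.0482).

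Without TCDD, none of the 10 genes was called between the labels by edgeR or DESeq2 in the mean of the vehicle-treated libraries over the hours (1.2% of all genes), with 1 at an unadjusted p under 0.05 (15.9% of all genes). That gene was *Phlda3*, which passed the adjusted p alone, as 2.26% of all genes did, with means of 35.8 CPM (WT) and 43.02 CPM (Pkm ΔDRE; log2 fold change 0.51, standard error 0.14, adjusted p = 0.0414). It reached the fold change threshold without hour 12 (0.63) or hour 96 (0.62). Of the p21-repressed genes, *Plk1* (log2 fold change 1.74, adjusted p = 0.00454) and *Ccnb1* (1.14, adjusted p = 0.0305) were higher under the label Pkm ΔDRE, where *Cdkn1a* differed by 0.09 (95% interval -0.07 to 0.25). Label, animals and isolation cannot be told apart here.

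Over the 36 group means the 10 genes fell into opposing sets. *Ccng1* and *Phlda3* varied together (Pearson's r 0.84 of log2 CPM over 36 groups), as did *Bax* and *Phlda3* (0.87), *Cdkn1a* and *Gdf15* (0.83) and *Mdm2* and *Trp53inp1* (0.82). *Ccng1* ran against *Gdf15* (-0.92) and *Cdkn1a* (-0.84), and *Trp53* against *Mdm2* (-0.71). These are descriptions over groups that share the time course, and no test was made. Among the libraries of a group, after subtraction of group means, *Trp53* still ran against *Mdm2* (-0.77 over all libraries), *Cdkn1a* with *Sesn2* (0.78) and *Ccng1* with *Trp53inp1* (0.69). Other pairs did not keep their value there: *Ccng1* and *Phlda3* were at 0.04, *Bax* and *Phlda3* at 0.61, *Cdkn1a* and *Gdf15* at 0.60, *Mdm2* and *Trp53inp1* at 0.60, and *Ccng1* and *Bax* turned from 0.71 over group means to -0.36. The same deviations followed the share of pairs on no gene, positively for the transcripts low in GC (*Trp53inp1* 0.56, *Ccng1* 0.50 and *Mdm2* 0.44), negatively for *Cdkn1a* (-0.47), *Sesn2* (-0.45), *Gdf15* (-0.38), *Trp53* (-0.37) and *Bax* (-0.33), and hardly for *Phlda3* (-0.14) and *Bbc3* (-0.05).

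By the same measure over 11419 genes and 36 group means, the genes most like *Cdkn1a* were *Yif1b* (Pearson's r 0.93), *Cyth4*, *Sirt3*, *Zfp747* and *Dcxr* (0.92 each), and those most like *Mdm2* were *Kansl1* (0.94), *Zkscan1*, *Slu7*, *Rnf24* and *Zfp507* (0.93 each). None of them is in the lists of p53 targets or regulators used here.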

How the data were processed

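RNA-Seq libraries of primary mouse hepatocytes were analysed from the unstranded counts per gene that the authors deposited, in which each gene holds the number of uniquely mapped read pairs with no normalization. The submitters' processing notes name FastQC 0.11.3, Trimmomatic 0.39, STAR 2.7, DESeq2 and the build GRCm39. The first 4 entries of a file are not genes and held 16.8% to 48.0% of the pairs, which entered neither the library sizes nor the tests. A library held 13588848 to 30719161 pairs on genes, which limits precision for genes with few counts.

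Symbols for 52083 of 55359 identifiers, transcript GC content and gene positions came from a GRCm38 annotation, and promoter windows from RefSeq (GRCm38.p6); no position was converted between builds. Counts were TMM-scaled in edgeR 4.0.16 under R 4.3.3, filtered with filterByExpr (count minimum 10, total minimum 15) and tested with the robust quasi-likelihood test and Benjamini-Hochberg adjustment over all genes. Each hour's TCDD test used 8 libraries of 1 label. Responses averaged over 9 hours used 72 libraries of a label, time windows its 36 vehicle-treated libraries, the label difference all 72 vehicle-treated libraries, and interactions 16 or all 144 libraries. Standard errors were the absolute log2 fold change over the square root of F, and 95% intervals 1.96 standard errors. Tests were checked on simulated data.

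The 10 genes, the pathway and marker lists and the tests were chosen with earlier results of these data known. Named were the 10 genes, up to 3 called genes in each direction from the pathway lists for each mean response and time window, and the 5 genes most like *Cdkn1a* and *Mdm2*; other list members were named after their values were seen. *Ddit3*, with more than 1 identifier, was left out of the ATF4 list, which kept 7 genes. Alternatives were RLE scaling, DESeq2 1.42.0, no filter on low counts, no fold change threshold, 1 fit per label with and without 1 surrogate variable (sva 3.50.0, limma 3.58.1), the pairs on no gene as a covariate, a replicate block and leaving out each library, number or hour. Removal of each library's GC trend and leaving out libraries 21, 31, 40 and 64 were added after seeing the data. The GC trend was fitted without regard to treatment, hour or label, so it also takes out any such difference that runs with GC content. Software for tables was data.table (1.17.8), pandas 2.3.3 and Python 3.11.15, and figures matplotlib 3.10.9.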

Additional observations from a re-analysis of the deposited data

Results flagged for a closer look

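In 28 of 360 sets of 4 libraries (10 genes in 36 groups), 1 library stood apart from the other 3 by a gap whose share of the range was above Dixon's 95% critical value for 4 values. Chance gives about 1 such set in 20. The 28 sets involved 19 libraries, and no reason for it was tested. Library 71 (WT, TCDD, 120 h) stood apart for 4 genes, low for *Mdm2* (153.7 CPM, the nearest library at 215.6), *Trp53inp1* (107.2, nearest 277.2) and *Phlda3* (36.13, nearest 57.28) and high for *Sesn2* (62.86, nearest 52.9). Library 27 (WT, vehicle, 72 h) stood apart for 3 genes, high for *Gdf15* (228.5 CPM, nearest 93.09), *Sesn2* (92.99, nearest 54.54) and *Phlda3* (75.16, nearest 55.02).

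Another 4 libraries stood apart for more than 1 gene each, all labelled Pkm ΔDRE. Library 97 (vehicle, 72 h), whose removal brought 4 calls, was high for *Mdm2* at 176.8 CPM (nearest 83.25) and low for *Sesn2* at 45.03 CPM (nearest 64.13). Library 80 (vehicle, 4 h) was high for *Ccng1* at 113.2 CPM (nearest 26.94) and for *Phlda3* at 74.51 CPM (nearest 22.02). It also had the highest *Pkm* of its group, at 502.1 CPM (group median 179.9). Summed hepatocyte markers in that group ran from 10697 to 144400 CPM. Library 94 (vehicle, 48 h) was high for *Trp53inp1* at 184.8 CPM (nearest 40.22) and low for *Bbc3* at 12.47 CPM (nearest 23.04). Of the libraries treated with TCDD for 8 h, 1 was high for *Trp53* at 200.9 CPM (nearest 145.6) and for *Gdf15* at 292.6 CPM (nearest 185.7).

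The remaining sets had a library of their own. Under the label WT with vehicle, *Trp53* stood at 196 CPM in library 20 at 24 h and *Sesn2* at 112.9 CPM in library 4 at 2 h, both high. Under the label WT with TCDD, *Mdm2* was low at 47.76 CPM in library 40 at 2 h, one of the libraries in which *Cyp1a1* went against the treatment, and at 87.86 CPM in library 62 at 72 h. In the same label and treatment *Cdkn1a* was low at 215.3 CPM in library 65 at 96 h and *Bbc3* at 6.059 CPM in library 47 at 8 h, and *Bax* was high at 26.22 CPM in library 44 at 4 h and at 55.96 CPM in library 50 at 12 h. Under the label Pkm ΔDRE with TCDD, *Mdm2* was high at 183.3 CPM in 1 library at 24 h and at 93.45 CPM in library 130 at 48 h, and *Trp53inp1* at 228.6 CPM in library 140 at 96 h. With vehicle, *Gdf15* was high at 414.3 CPM in 1 library at 96 h and *Phlda3* at 5.611 CPM in library 74 at 2 h.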

How the results depend on the processing

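Most counts of called genes moved by no more than 1.5 times (293 counts did so and 27 moved further). With the GC trend removed, 0 of the 5 genes were called under the label WT at 8 h and 0 of 2 at 96 h (18.3% and 7.98% of all genes). Under Pkm ΔDRE 5 were called from 2 to 8 h, 2 from 8 to 24 h and 2 from 24 to 120 h. Those fits called 16%, 8.21% and 30% of all genes, against 11%, 3.33% and 23.4% on the counts as deposited. With 1 fit per label and 1 surrogate variable 0 were called at 8 h and 0 at 96 h, and with 1 fit per label 0 at 96 h. *Ccng1* turned negative at WT 8 h (-0.042 without the GC trend, -0.19 with the surrogate variable), as did *Trp53inp1* with the surrogate variable (-0.63); the cause was not tested. Without the fold change threshold, 7 genes passed at WT 96 h, 8 in the WT mean and 1 (*Phlda3*) between the labels. Under Pkm ΔDRE over 9 hours, 1 test was called with no filter and 1 with DESeq2, both *Trp53inp1* at 2 h. Those fits called 4.3% and 4.66% of all genes at that hour. From 8 to 24 h DESeq2 called 2.

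Over all genes at WT 8 h, 4640 were called on the counts as deposited, 2262 without the GC trend and 11 with the surrogate variable; at WT 96 h 2085 were called, 1100 without the GC trend and 120.0 with 1 fit per label. The median log2 fold change over all genes shifted from 0.00 to 0.47 at WT 8 h with no filter and from 0.11 to 0.24 from 24 to 120 h under WT with RLE scaling, and no called member changed sign under either.

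With libraries, numbers or hours left out in turn, calls ran from 5 to 6 at WT 8 h, 1 to 3 at WT 96 h, 0 to 0 at the other WT hours, 0 to 4 over the Pkm ΔDRE hours, 0 to 1 in the WT mean (*Trp53inp1* 0.59 without hour 72), 0 to 0 in the Pkm ΔDRE mean, 0 to 2 for the hourly interaction (*Ccng1* -0.998 and *Trp53inp1* -1.20 at 96 h without replicate 4), 0 to 0 for its mean, and 0 to 1 between the labels. In the successive WT time windows they ran from 6 to 8, 2 to 3 and 4 to 5, and under Pkm ΔDRE from 1 to 3, 0 to 2 and 1 to 1 (from 8 to 24 h *Trp53inp1* 2.39 and *Gdf15* -1.11 without replicate 4).

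The order of library numbers as a replicate block gave 5 calls under Pkm ΔDRE over 9 hours: *Mdm2* (0.69) and *Trp53inp1* (1.32) at 2 h and *Bax* (0.71), *Phlda3* (0.70) and *Trp53inp1* (-0.60) at 12 h, where it called 14.9% and 11.5% of all genes against 0% and 0.024% without it. It moved no other count of calls by over 1.5 times. No label pairs the numbers. Their mean same-number correlation was above 0 in 18 of 18 comparisons and every one was over 0.1 in 5 (WT 8, 24 and 48 h, Pkm ΔDRE 12 and 24 h), and 36 of 72 TCDD libraries correlated best with their own number, a hint of pairing from the data and not from the design. Genes at a few CPM, such as *Phlda3* at 2 h, rest on few reads.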
